A study of Mus musculus with 10 samples.

Results

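The nuclear genome encodes the protein part of the mitochondrial ribosome, and the mouse genes for these proteins carry the symbols Mrpl (large subunit) and Mrps (small subunit) followed by a number. All protein-coding genes with such a symbol, pseudogenes left out, were taken from the 10 gene count tables. This gave 78 of 48709 genes, 49 named for the large subunit and 29 for the small subunit. Choice by symbol used no measured value. The symbol does not always give the place of the protein. The products of Mrps18a and Mrps30 sit in the large subunit, and the product of Mrps36 is now counted to the oxoglutarate dehydrogenase complex. These genes were kept under their symbols.

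The mitochondrial ribosome translates the few messenger RNAs of the mitochondrial genome, whose protein products are core subunits of the respiratory chain complexes and of the ATP synthase. Its ribosomal RNAs come from mitochondrial DNA, while all of its proteins are made in the cytosol and imported. Some of these proteins have a counterpart in the bacterial ribosome, and the others were added during the evolution of mitochondria. Neurons rely on oxidative phosphorylation to pay for synaptic signalling, and loss of single mitochondrial ribosomal proteins in humans causes disorders that often affect the brain.

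The RNA came from mouse primary hippocampal neurons, cultured for 10 days before lipid nanoparticles were added and harvested after 48 h. In 4 libraries the cargo was anti-miR-409-5p, an oligonucleotide that silences that microRNA, in 4 it was anti-miR-501-3p, and in the 2 control libraries it was scramble RNA. The title of the series calls both microRNAs exercise-induced, and the question is what their loss does to the balance of the neuron. Strain, age at dissection, sex and the number of cultures behind a group are not given in the sources used here, so the p-values reflect only how these libraries scatter, which may be technical. All 3 groups share the nanoparticle treatment, and there was no untreated group.

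The antisense inhibitors are directed at the following mature microRNAs, given in RefSeq's sequence for mouse build GRCm38.p6 with the seed (bases 2 to 8) in capitals. Mature microRNAs are not captured by poly(A) libraries, so the loss of either microRNA was not measured.
miR-409-5p, chr12:109743172-109743194, plus strand: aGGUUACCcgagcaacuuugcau
miR-501-3p, chrX:7241270-7241291, minus strand: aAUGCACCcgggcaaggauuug
The seeds differ, so a 3' UTR match to one is no match to the other.

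Total counts ran from 22254788 to 32096808 per library, the deepest and the shallowest both being anti-miR-409-5p libraries, and 16884 genes had enough counts to be tested. Neuronal markers were abundant, with Map2 (a dendritic microtubule protein) at 2127 to 2506 CPM over the 8 anti-miR libraries and 1980 and 2025 CPM in control. CPM here is edgeR's count relative to library size after TMM scaling, unless another denominator is named. Astrocyte markers were present as well. The 8 listed astrocyte genes summed to 4628 to 4887 CPM in anti-miR-409-5p neurons, 4451 to 4669 CPM in anti-miR-501-3p neurons and 4211 to 4308 CPM in control, and Gfap alone held 424 to 534 CPM over all libraries. The 7 microglia genes summed to 13.7 to 18.1 CPM over the anti-miR libraries and 15.3 to 16.03 CPM in control, with Cx3cr1 at 0.134 CPM or less in every library. The 8 genes of the oligodendrocyte lineage summed to 420 to 520, 351 to 500 and 456 to 636 CPM, in the same order of groups. The neuronal sum was higher in every anti-miR library (7178 to 7537 and 7034 to 7531 CPM) than in control (6777 to 6870 CPM). Of its 9 genes 6 rose and 3 fell under anti-miR-409-5p and 5 rose and 3 fell under anti-miR-501-3p, with Tubb3 at 737 to 825 CPM in the anti-miR libraries and 883 and 902 CPM in control, and Rbfox3 and Slc17a7 also lower in all 8. Of the 8 astrocyte genes 4 rose and 1 fell under anti-miR-409-5p and 3 rose and 3 fell under anti-miR-501-3p, and the higher sum lay mostly in Slc1a2 (2202 to 2513 CPM in the anti-miR libraries, 1877 and 2003 CPM in control). The 9 endothelial, mural and fibroblast genes summed to 222 to 345 CPM over the anti-miR libraries and 241 to 341 CPM in control, and the 6 genes of proliferating cells to 83.0 to 145 CPM and 97.5 to 141 CPM. The part of cell composition in the results was not tested, and in bulk RNA fewer cells of a type and less RNA per cell cannot be told apart.

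The genes differed widely in level. Counts divided by the length of all exons of a gene and scaled to the same sum in each library (TPM) had a median of 42.2 over the 49 large subunit genes and 33.6 over the 29 small subunit genes. Mrpl10, which encodes the base of the stalk that recruits translation factors, had the highest mean (135.0 TPM ± 5.42, SD over 10 libraries). Mrpl41 followed with 133.1 ± 10.2, then Mrpl20 with 122.9 ± 7.63 and Mrpl28 with 122.9 ± 12.2. Mrpl10 lay above Mrpl41 in 6 of 10 libraries and Mrpl20 above Mrpl28 in 3 of 10, so these neighbours have no fixed order, while Mrpl41 lay above Mrpl20 in 9 and Mrpl10 above Mrpl20 in 10 of 10. Mrps12, the counterpart of the bacterial decoding-centre protein S12, led the small subunit genes with 106.6 ± 13.1 TPM. The lowest were Mrpl53 (0.237 ± 0.145), Mrpl23 (1.81 ± 0.153) and Mrps10 (5.75 ± 0.176), followed by Mrps36 (8.52 ± 0.810) and then Mrps30. Exon length enters this scale, and the 8079 exon bases of Mrps10 and the 6666 of Mrps30 include those of long annotated isoforms. Mrpl53 had 0 to 3 counts per library and was the only one of the 78 genes that failed the filter on low counts. Of its exon bases, 88.0% are shared with the gene Gm42688 on the same strand, a setting in which counting by gene can leave reads unassigned.

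**Figure D1:**
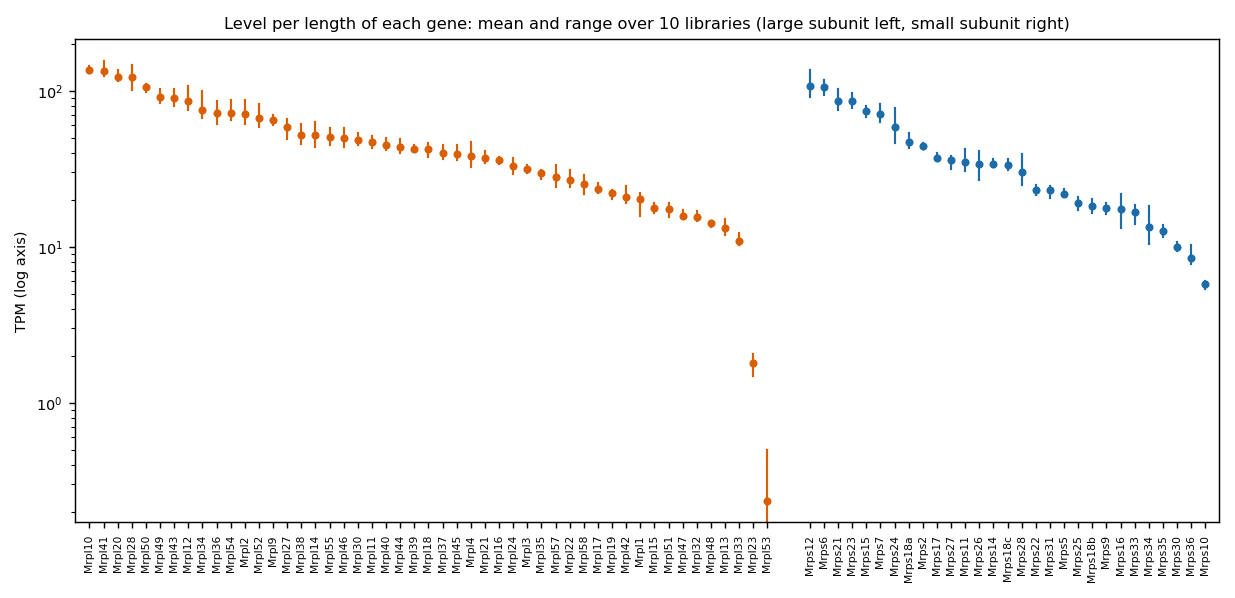
Level of each of the 78 genes per exon length (TPM, log axis), as the mean over 10 libraries (point) and the range from the lowest to the highest library (bar), large subunit genes on the left and small subunit genes on the right. Mrpl10 and Mrpl41 lie highest, and Mrpl53, at 0.237 TPM, and Mrpl23, at 1.81 TPM, lie far below the others.

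Large subunit genes mostly pointed down under anti-miR-409-5p, by small amounts. Of the 48 tested, 11 fell, 2 rose and 35 did not pass the threshold (edgeR's quasi-likelihood test, Benjamini-Hochberg adjusted p of 0.05 over all genes tested). The share that fell was 22.9%, where 12.2% of all tested genes fell and 15.6% rose. The share called in either direction, 27.1%, was near the 27.8% of all genes. The median log2 fold change was -0.11 over the 48 genes and -0.011 over all genes, and the range ran from -0.34 to 0.23. The largest falls were those of Mrpl34, Mrpl54, Mrpl14, Mrpl52 and Mrpl57. Mrpl34 and Mrpl14 encode counterparts of bacterial proteins, the other 3 proteins without one.

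Under anti-miR-501-3p, 16 of the 48 large subunit genes fell (33.3%), 2 rose and 30 did not pass the threshold (edgeR's quasi-likelihood test, Benjamini-Hochberg). Of all tested genes 15.4% fell and 17.6% rose, which makes 33% called in either direction, against 37.5% of the large subunit genes. The median log2 fold change was -0.097, against -0.012 over all genes, with a range of -0.37 to 0.26. The comparisons with control use the same 2 control libraries, so they are not independent of each other.

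Mrpl34 had 10.9, 10.5, 9.89 and 10.5 CPM in the anti-miR-409-5p libraries, 11.1, 9.85, 10.1 and 9.83 CPM in the anti-miR-501-3p libraries, and 13.98 and 12.6 CPM in control. All 8 anti-miR libraries lay below both control libraries. Its log2 fold change was -0.34 ± 0.078 (SE) under anti-miR-409-5p and -0.37 ± 0.078 under anti-miR-501-3p (edgeR, Benjamini-Hochberg adjusted p = 0.00427 and 0.00155). With the trend of counts on GC content and length removed, as described further on, neither call held (-0.13 and -0.15). The gene lies at chr8:71464959-71465747 on the plus strand of mm10.

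Mrpl54, whose product is a mitochondria-specific protein, had 13.8, 13.9, 13.0 and 13.4 CPM in the anti-miR-409-5p libraries, 14.2, 13.96, 12.9 and 13.6 CPM in the anti-miR-501-3p libraries, and 16.6 and 16.6 CPM in control. The groups did not overlap, and the 2 controls were nearly equal. Log2 fold changes came to -0.30 ± 0.066 and -0.28 ± 0.066 (edgeR, Benjamini-Hochberg adjusted p = 0.00335 and 0.00360). Neither call held with the GC and length trend removed.

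Mrpl12 encodes the counterpart of bacterial L7/L12, the flexible stalk protein that contacts translation factors. It had 31.5, 31.1, 29.95 and 31.2 CPM in the anti-miR-409-5p libraries, 31.5, 31.1, 28.0 and 29.97 CPM in the anti-miR-501-3p libraries, and 38.2 and 34.2 CPM in control. The controls lay further apart than the anti-miR-409-5p libraries did, and both lay above all 8 anti-miR libraries. The gene lies at chr11:120484613-120489065 on the plus strand. The log2 fold changes were -0.22 ± 0.059 and -0.26 ± 0.059 (edgeR, Benjamini-Hochberg adjusted p = 0.00935 and 0.00276). With the GC and length trend removed they were -0.024 and -0.063, and neither was called.

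Mrpl57, whose product has no bacterial counterpart, had 20.6, 20.2, 18.3 and 17.5 CPM in the anti-miR-409-5p libraries, 20.5, 18.7, 18.7 and 17.4 CPM in the anti-miR-501-3p libraries, and 22.9 and 22.3 CPM in control. Its log2 fold changes were -0.24 ± 0.076 and -0.27 ± 0.076 (edgeR, Benjamini-Hochberg adjusted p = 0.0257 and 0.0117). Among the remaining large subunit genes called in both comparisons, Mrpl14 had log2 fold changes of -0.28 and -0.27, Mrpl52 -0.27 and -0.28, Mrpl2 -0.20 and -0.27, and Mrpl28 -0.22 and -0.18. With the GC and length trend removed none of these 4 was called, and Mrpl28 had 0.0093 and 0.055, Mrpl2 0.019 and -0.049, Mrpl14 -0.056 and -0.032, and Mrpl52 -0.13 in both. Mrpl2 encodes the counterpart of bacterial L2, which lies near the peptidyl transferase centre, and Mrpl14 a protein at the interface of the subunits. Mrpl38 and Mrpl42 were also called in both.

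Only 2 of the 77 tested genes rose, Mrpl1 and Mrpl50, both in the large subunit and both in each comparison with control. Mrpl1 encodes the counterpart of bacterial L1, which forms the stalk by which used transfer RNAs leave. It had 20.5, 21.6, 21.0 and 21.4 CPM in the anti-miR-409-5p libraries, 20.4, 22.96, 22.7 and 20.3 CPM in the anti-miR-501-3p libraries, and 15.7 and 20.1 CPM in control. The controls lay far apart, and the higher one lay just below the lowest anti-miR library. Its log2 fold changes came to 0.23 ± 0.084 and 0.26 ± 0.084 (edgeR, Benjamini-Hochberg adjusted p = 0.0460 and 0.0217). Mrpl50, which encodes a mitochondria-specific protein, had 53.6, 55.0, 54.4 and 52.2 CPM in the anti-miR-409-5p libraries, 54.5, 55.3, 54.9 and 56.8 CPM in the anti-miR-501-3p libraries, and 47.7 and 49.4 CPM in control. Its log2 fold changes were 0.15 ± 0.044 and 0.19 ± 0.044 (edgeR, Benjamini-Hochberg adjusted p = 0.0191 and 0.00328). Both rises ended once the trend of counts on GC content, described further on, was removed, with log2 fold changes of -0.0071 and -0.0083 for Mrpl1 and -0.028 and -0.022 for Mrpl50.

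Small subunit genes held the largest falls. Under anti-miR-409-5p 8 of 29 fell (27.6%) and none rose, with a median log2 fold change of -0.077 and a range of -0.49 to 0.10. Under anti-miR-501-3p 9 of 29 fell (31.0%) and none rose, with a median of -0.096 and a range of -0.48 to 0.088 (edgeR's quasi-likelihood test, Benjamini-Hochberg). In these comparisons 12.2% and 15.4% of all tested genes fell. Since no small subunit gene rose, the shares called in either direction are also 27.6% and 31.0%, near the 27.8% and 33% of all genes. The 6 with the largest falls were Mrps34, Mrps24, Mrps28, Mrps16, Mrps12 and Mrps26, and Mrps7 and Mrps18a were called in both comparisons as well.

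Mrps24 encodes the counterpart of bacterial S3, at the entry of the messenger RNA channel. It had 21.4, 20.2, 18.5 and 19.1 CPM in the anti-miR-409-5p libraries, 19.9, 20.2, 16.4 and 17.1 CPM in the anti-miR-501-3p libraries, and 26.3 and 25.2 CPM in control. Every anti-miR library lay well below the lower control. The gene lies at chr11:5703983-5715680 on the minus strand. It shares 15.4% of its exon bases with Urgcp on the same strand, where reads could belong to either gene. The log2 fold changes were -0.38 ± 0.081 and -0.48 ± 0.082 (edgeR, Benjamini-Hochberg adjusted p = 0.00286 and 0.000323), which put anti-miR-501-3p neurons at 0.717 of the control level. Its call under anti-miR-501-3p held in all 21 alternative fits, with -0.30 after removal of the GC and length trend. The call under anti-miR-409-5p was lost in 4 of 21, without control replicate 1 and in the 3 fits with that trend removed (-0.19 with the removal alone).

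Mrps34 encodes a mitochondria-specific protein that, in mice, is needed to keep the small subunit stable. It had 6.13, 6.64, 5.45 and 5.74 CPM in the anti-miR-409-5p libraries, 7.12, 6.72, 6.08 and 5.22 CPM in the anti-miR-501-3p libraries, and 8.72 and 8.22 CPM in control. No anti-miR library reached the lower control. The log2 fold changes were -0.49 ± 0.11 and -0.42 ± 0.11 (edgeR, Benjamini-Hochberg adjusted p = 0.00393 and 0.00700). Neither call held with the GC and length trend removed. The count is uncertain, since 63.4% of the exon bases of Mrps34 are also annotated to Mapk8ip3 on the opposite strand and 37.0% to Nme3 on its own strand. The library kit does not mark strand, so reads of these genes cannot be told apart there.

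Mrps28, counterpart of bacterial S1, had 6.58, 5.34, 4.67 and 5.20 CPM in the anti-miR-409-5p libraries, 5.52, 5.37, 4.86 and 4.81 CPM in the anti-miR-501-3p libraries, and 7.08 and 6.81 CPM in control. Anti-miR-409-5p replicate 1 lay close to the controls and the other 7 anti-miR libraries well below them. Mrps28 had log2 fold changes of -0.34 ± 0.11 and -0.43 ± 0.11 (edgeR, Benjamini-Hochberg adjusted p = 0.0323 and 0.00831). Mrps12 averaged 25.1 ± 1.95 CPM in anti-miR-409-5p neurons, 25.7 ± 1.30 in anti-miR-501-3p neurons and 30.7 ± 2.90 in control (SD, n = 4, 4 and 2), with log2 fold changes of -0.29 and -0.26. Mrps16, whose product is the counterpart of bacterial S16, had log2 fold changes of -0.31 and -0.32, and Mrps26, a mitochondria-specific gene, had -0.25 and -0.30. With the GC and length trend removed none of Mrps28, Mrps12 and Mrps26 was called, and Mrps16 was called only under anti-miR-501-3p.

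**Figure D2:**
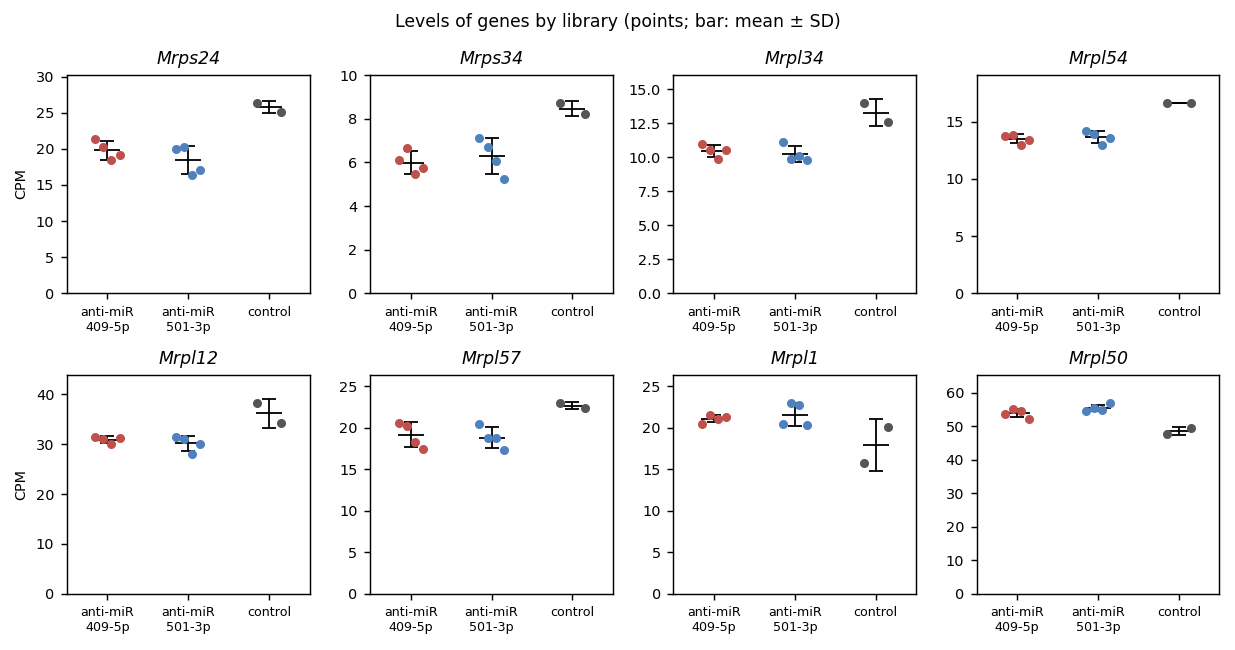
Level (CPM) of 8 genes in every library, with the mean and SD of anti-miR-409-5p (n = 4), anti-miR-501-3p (n = 4) and control (n = 2) neurons. For Mrps24, Mrps34, Mrpl34, Mrpl54, Mrpl12 and Mrpl57 all 8 anti-miR points lie below both control points, and for Mrpl1 and Mrpl50 they lie above.

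Other genes lay close to control. The 5 of largest p under anti-miR-409-5p were Mrpl51, Mrps15, Mrpl19, Mrpl23 and Mrpl47, with log2 fold changes between -0.016 and 0.0076. Those under anti-miR-501-3p were Mrps36, Mrpl44, Mrps9, Mrps14 and Mrpl21, between -0.0069 and 0.0053. For most of them the SE was 0.055 to 0.071, and for Mrpl23 and Mrps36, at 1.76 to 2.40 and 2.41 to 3.13 CPM over all libraries, it reached 0.15 and 0.14. Changes of the size of the SE were not detectable, and larger ones could be missed as well. Mrpl24, named as an example outside the naming rule, had -0.16 ± 0.065 under anti-miR-409-5p and was not called. Mrps9 had 24.1, 23.4, 24.9 and 24.6 CPM in the anti-miR-409-5p libraries, 24.1, 25.3, 22.6 and 25.1 CPM in the anti-miR-501-3p libraries, and 25.3 and 23.4 CPM in control, so the groups overlapped throughout.

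Counted by separation of the libraries, 35 of 77 genes had all 4 anti-miR-409-5p libraries below both controls and 3 had them above. The shares over all tested genes were 24% below and 24.1% above. For anti-miR-501-3p 39 lay below and 4 above, where all tested genes gave 25.6% and 24.3%. The log2 fold change was negative for 64 of 77 genes under anti-miR-409-5p and 60 of 77 under anti-miR-501-3p, against 52.1% and 51.9% of all tested genes. In the map of levels by library the lower genes form the blue upper part of both panels.

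**Figure D3:**
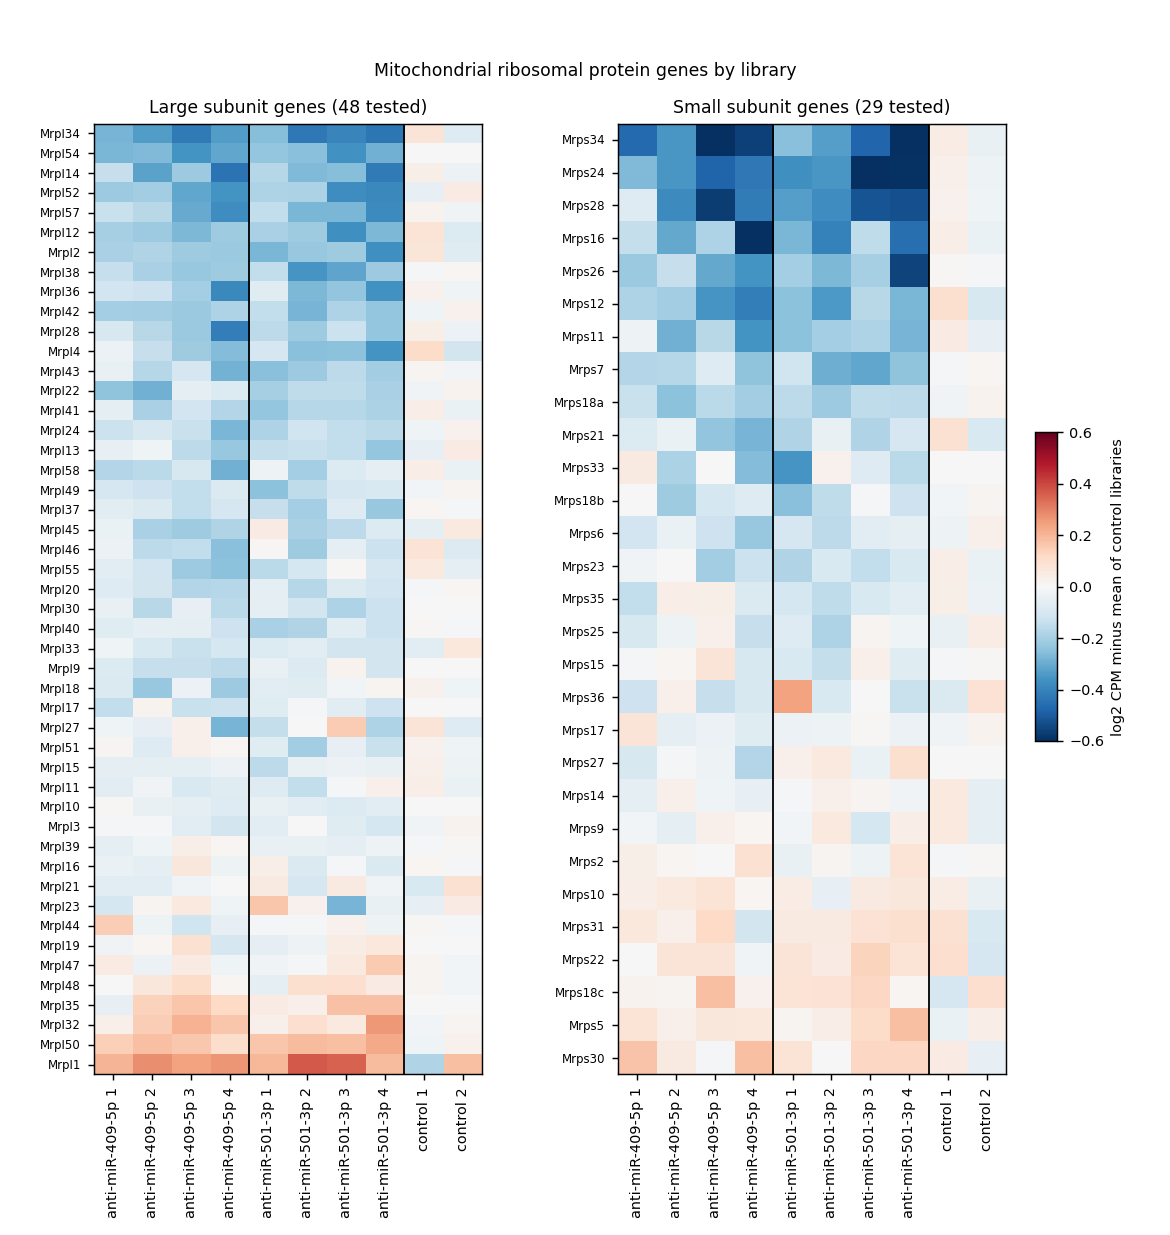
Difference of each tested gene's log2 CPM from the mean of the 2 control libraries, in each of the 10 libraries, for 48 large subunit genes (left) and 29 small subunit genes (right), sorted by their mean change. Blue marks lower and red higher levels; Mrps34, Mrps24 and Mrps28 are the bluest and Mrpl1 the reddest gene.

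Added over genes, the large subunit took 1221 ± 38.0 CPM, here of total counts, in anti-miR-409-5p neurons, 1214 ± 18.5 in anti-miR-501-3p neurons and 1343 ± 15.5 in control (SD, n = 4, 4 and 2). The small subunit took 648 ± 23.9, 642 ± 7.98 and 715 ± 13.8 in the same groups. Each of the 8 anti-miR libraries was below both controls for both subunits. The gap was smaller after TMM scaling, with 1228, 1225 and 1309 CPM for the large and 652, 648 and 697 CPM for the small subunit. The split of calls moved with the scaling. With scaling by total counts 21 large subunit genes fell and none rose under anti-miR-409-5p, and 21 fell and 2 rose under anti-miR-501-3p. Under the same scaling 19% of all genes fell and 13% rose for anti-miR-409-5p, and 22.4% fell and 14.5% rose for anti-miR-501-3p.

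No difference between the anti-miRs was detected in these genes. In the direct comparison 0 of 77 were called by edgeR's quasi-likelihood test or by DESeq2, none had an unadjusted p under 0.05 (5.88% of all tested genes had), and 0 of all 16884 genes were called (0%). With the replicate number as a block, since same-numbered anti-miR libraries deviated together, 252 of all genes were called (1.49%) and still 0 of the 77. In that fit 3 of the 77 had an unadjusted p under 0.05 (Mrps27, Mrpl51 and Mrps24), against 13.1% of all genes. The log2 fold changes of anti-miR-409-5p over anti-miR-501-3p without the block ran from -0.11 to 0.11, with a median SE of 0.054. The genes of smallest p were Mrps27 (-0.11 ± 0.055), Mrpl51 (0.11 ± 0.055), Mrpl9 (-0.073 ± 0.040), Mrpl18 (-0.11 ± 0.060) and Mrpl58 (-0.090 ± 0.057), the last encoding a hydrolase that frees stalled peptides. Mrpl18, for instance, had 13.9, 12.6, 14.4 and 12.7 CPM in the anti-miR-409-5p libraries and 14.1, 14.1, 14.6 and 14.9 CPM in the anti-miR-501-3p libraries. A gene called against control for one anti-miR alone is therefore not shown to respond to it alone. Mrpl20 was such a gene for anti-miR-409-5p. For anti-miR-501-3p they were Mrpl4, Mrpl36, Mrpl37, Mrpl41, Mrpl43, Mrpl49 and Mrps11, all but Mrpl41 named here because the count was small and after their values were seen.

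**Figure D4:**
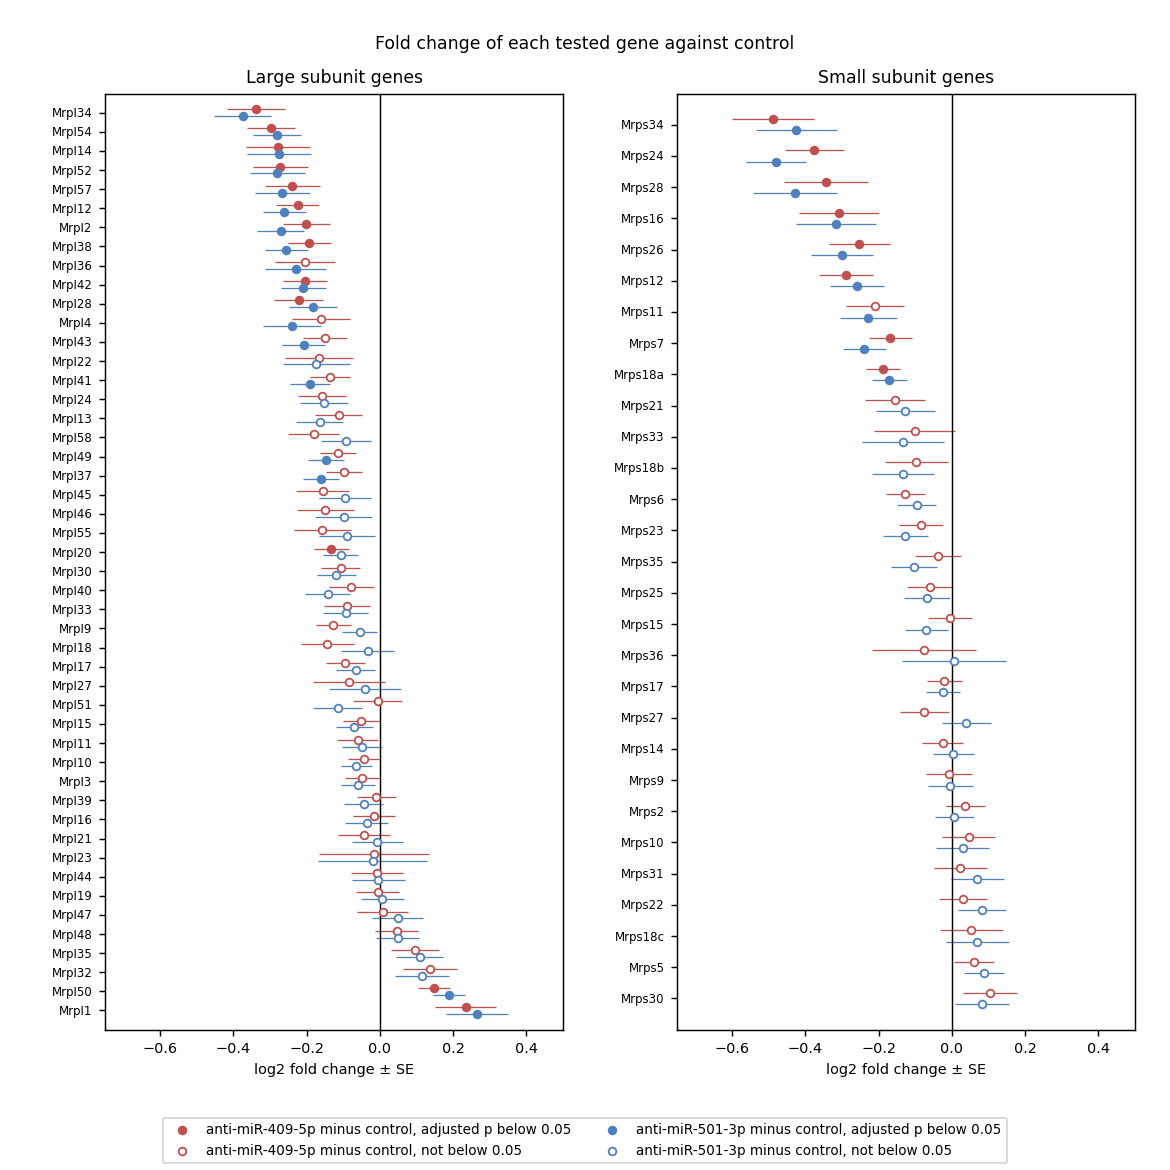
Log2 fold change ± SE of each tested gene against control, for anti-miR-409-5p (red) and anti-miR-501-3p (blue), large subunit genes left and small subunit genes right; filled points have an edgeR adjusted p below 0.05. Most points lie left of 0, and the red and blue bars of a gene overlap for nearly every gene.

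Proteins with and without a bacterial counterpart were set side by side within each subunit. In the large subunit 5 of 19 mitochondria-specific genes fell under anti-miR-409-5p and 9 of 19 under anti-miR-501-3p, while 6 of 29 and 7 of 29 genes with a bacterial counterpart did. In the small subunit 3 of 13 mitochondria-specific genes fell in each comparison, while 5 of 16 and 6 of 16 with a counterpart did. Of all tested genes 12.2% and 15.4% fell in these comparisons. The difference between the classes was not tested, and the median log2 fold changes of the classes lay between -0.15 and -0.066. Median GC content of the longest transcript differed between the classes as well. In the large subunit it was 51.3% for mitochondria-specific genes and 48.8% for the others, in the small subunit 48.4% and 50.8%.

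The fold changes followed the base composition of the transcripts. GC content of the longest annotated transcript had a median of 49.7% over the 77 tested genes and 49.5% over all genes. The genes that fell had medians of 55.4% under anti-miR-409-5p and 55.1% under anti-miR-501-3p, those not called 48.6% and 47.3%, and the 2 that rose 41.9%. Spearman's correlation of log2 fold change with GC content was -0.61 and -0.59 over the 77 genes, as a description across genes that share the same libraries, and -0.70 in both comparisons over 16839 genes. The part of base composition in the calls was not tested beyond the fits that remove its trend.

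**Figure D5:**
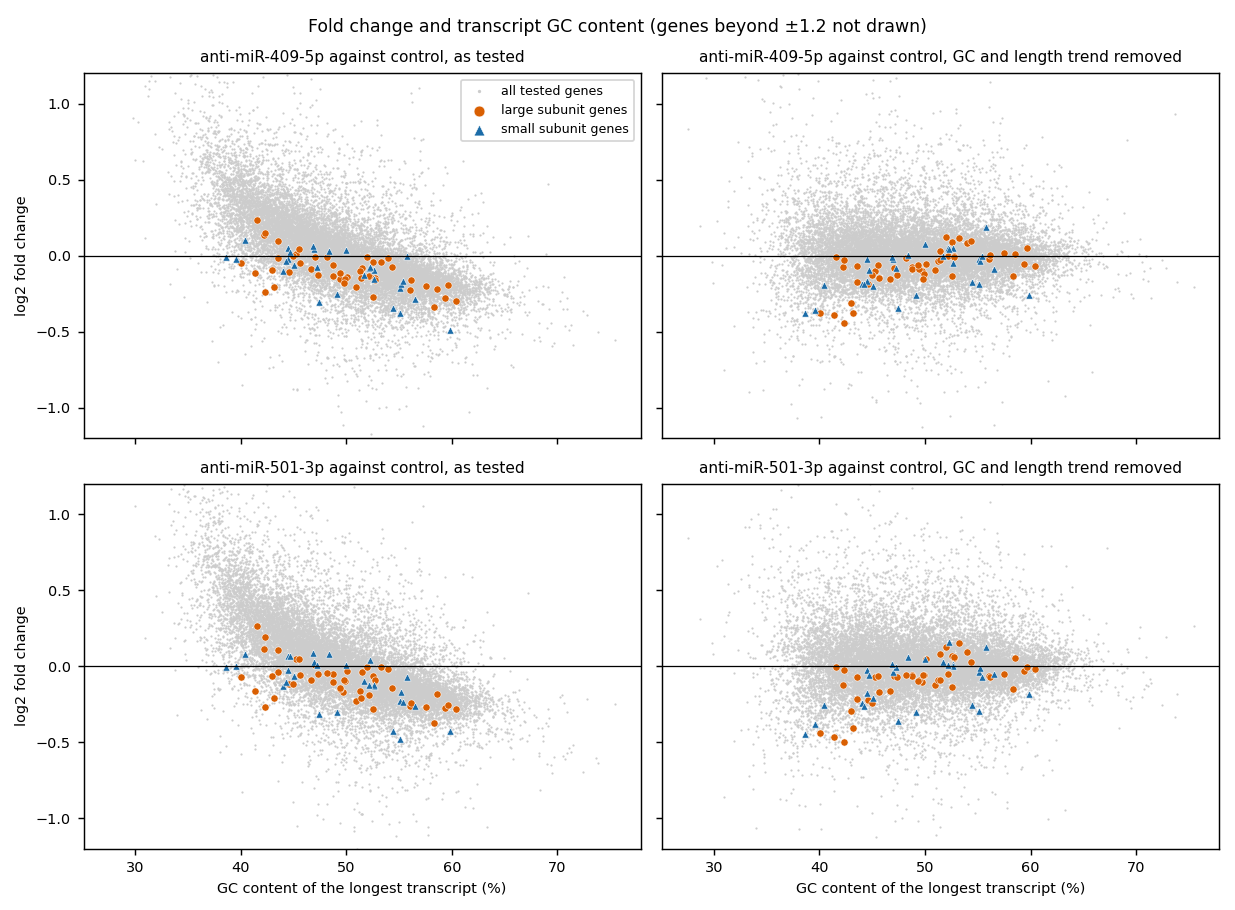
Log2 fold change against GC content of the longest transcript (%), for anti-miR-409-5p (top) and anti-miR-501-3p (bottom) against control, as tested (left) and after removal of each library's trend on GC content and length (right); grey points are all tested genes, circles large and triangles small subunit genes. At left the genes descend with the grey cloud; at right the descent is gone, and the genes of lowest GC content lie below the cloud's centre.

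With each library's trend on GC content and length removed, 7 large and 4 small subunit genes fell and 1 small subunit gene (Mrps15) rose under anti-miR-409-5p, where 3.46% of all genes fell. Under anti-miR-501-3p 9 large and 8 small subunit genes fell and none rose, where 4.61% of all genes fell. The share of all genes that rose is not given for this fit. The medians were -0.067 and -0.068 for the large subunit. Most of these genes were not called before. Of the 21 genes called under anti-miR-409-5p 2 kept their call (Mrpl42 and Mrpl57), and of the 27 called under anti-miR-501-3p 4 did (Mrpl42, Mrpl57, Mrps16 and Mrps24). Mrpl57, at 42.3% GC, had log2 fold changes of -0.44 and -0.50 after removal (edgeR, Benjamini-Hochberg adjusted p = 0.00336 and 0.000894), larger than before. Genes such as Mrps14, at 39.6% GC, had -0.025 and 0.0041 as tested and -0.36 and -0.38 after removal. For 23 of the 78 genes the longest transcript is not a coding one, most often a transcript with a retained intron. With GC content and length of the longest coding transcript instead, 5 large and 3 small subunit genes fell under anti-miR-409-5p (2.19% of all genes) and 7 and 5 under anti-miR-501-3p (3.38%).

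The calls depended on the control libraries. Without control replicate 1 no gene of the 77 was called under anti-miR-409-5p by edgeR (11 had an unadjusted p under 0.05; DESeq2 was not run without this library), and under anti-miR-501-3p 3 were (Mrpl38, Mrpl52 and Mrps24, all lower), while 0.977% and 1.57% of all tested genes fell. Without control replicate 2 4 large and 3 small subunit genes fell under anti-miR-409-5p and 8 and 5 under anti-miR-501-3p, while 6.45% and 10.6% of all genes fell. The median of either subunit was negative in each of these fits.

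Seed matches were counted in the 3' UTRs. The longest annotated 3' UTR had a median of 492.5 bases over the 78 genes, against 1393 over 14232 tested genes. A match to miR-409-5p (GGTAACC or GTAACCA) stood in 7 of 78 genes (8.97%, against 10.5% of all), and a match to miR-501-3p (GGTGCAT or GTGCATA) in 11 of 78 (14.1%, against 13.6%), both near the share of all genes. Loss of a microRNA is known to raise the level of its direct targets. Of the 7 genes 1 fell and none rose under anti-miR-409-5p, and of the 11 genes 3 fell and none rose under anti-miR-501-3p. Of all tested genes 12.2% and 15.4% fell and 15.6% and 17.6% rose in these comparisons. Whether any of these genes is a direct target was not tested. With the GC and length trend removed Mrpl57 and Mrps16 were still called under anti-miR-501-3p. Mrpl43 under anti-miR-501-3p and Mrps26 under anti-miR-409-5p were not. The sites of the genes that fell are shown in the sense of the messenger RNA, from the GENCODE transcripts on build mm10, with the match in capitals.
Mrps26 site for miR-409-5p, chr2:130565659-130565685, plus strand: agtgacttctGTAACCAggccctgtcc
Mrpl57 site for miR-501-3p, chr14:57827096-57827122, plus strand: ggctccatatGTGCATAatcggtctat
Mrps16 site for miR-501-3p, chr14:20391262-20391288, minus strand: tgtgaaacttGTGCATAaagttttgtg
Mrpl43 site for miR-501-3p, chr19:45005271-45005297, minus strand: ggcgttggtaGTGCATAacctttaatc
All 4 matches are 7 bases long. The gene Mrps14, with a match to miR-501-3p, had a log2 fold change of 0.0041 under anti-miR-501-3p, and the 11 genes had a median of -0.066.

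Promoters were searched for motifs of known regulators of nuclear genes for mitochondria. RefSeq windows of 250 bases before to 50 bases after the start matched 69 of the 78 genes, 9 having no entry by symbol. The motif of NRF1, a factor that drives many such genes, was searched by its consensus on both strands and stood in 13 of 69 genes (18.8%), against 5.19% of 27025 genes, expressed or not. The core CCGGAAG of ETS family factors such as GABPA stood in 26 (37.7%), against 9.93%, and AANATGGCG of YY1 in 11 (15.9%), against 2.76%. The windows of these genes had a median GC content of 58.7%, and all windows 52.7%, and the part of base composition in these shares was not tested. A match is a string of letters and no measured binding. The 130 bases before the start are shown for 3 genes that fell and for Mrpl1, which rose and holds none of these letters in its window, with motif letters in capitals.
Mrpl12 (NRF1), chr11:120484507-120484636, plus strand: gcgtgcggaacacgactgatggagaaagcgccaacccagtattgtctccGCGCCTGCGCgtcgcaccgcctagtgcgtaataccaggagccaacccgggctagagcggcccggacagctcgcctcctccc
Mrpl57 (NRF1), chr14:57826109-57826238, plus strand: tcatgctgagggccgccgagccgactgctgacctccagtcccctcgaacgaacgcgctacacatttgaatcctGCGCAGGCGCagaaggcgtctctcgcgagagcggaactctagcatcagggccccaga
Mrpl34 (ETS), chr8:71464796-71464925, plus strand: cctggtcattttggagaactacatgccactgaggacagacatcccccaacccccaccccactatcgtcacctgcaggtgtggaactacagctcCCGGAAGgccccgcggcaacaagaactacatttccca
Mrpl1 (none), chr5:96209985-96210114, plus strand: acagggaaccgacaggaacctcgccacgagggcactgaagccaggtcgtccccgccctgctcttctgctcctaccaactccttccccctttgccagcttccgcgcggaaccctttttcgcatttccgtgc
Falls occurred with and without each motif. Among genes with the NRF1 motif 4 of 13 fell in each comparison, and among those without it 11 of 55 fell under anti-miR-409-5p and 16 of 55 under anti-miR-501-3p. Over all tested genes with that motif 16.5% and 21.0% fell. With the YY1 motif 3 of 11 and 6 of 11 fell, against 12 of 57 and 14 of 57 without it and 16.6% and 24.1% of all genes with it. With the ETS core 7 of 25 and 8 of 25 fell, against 8 of 43 and 12 of 43 without it and 17.3% and 20.6% of all genes with it. The differences were not tested.

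Genes of the same pathway moved in both directions. The 5 mitochondrial ribosomal proteins with other symbols gave 1 fall and 1 rise in each comparison. Aurkaip1, a small subunit protein gene, had 39.1 ± 1.46, 40.7 ± 1.64 and 47.8 ± 1.198 CPM in anti-miR-409-5p, anti-miR-501-3p and control neurons, and Ptcd3, a pentatricopeptide protein gene of the small subunit, had 61.6 ± 1.54, 62.1 ± 3.14 and 54.6 ± 0.812 CPM. Their log2 fold changes were -0.29 and -0.23 for Aurkaip1 and 0.17 and 0.18 for Ptcd3. After removal of the GC and length trend neither was called, and Ptcd3 had -0.038 and -0.059. Of 25 genes for assembly of the mitochondrial ribosome and modification of its RNA, 6 fell and 3 rose under anti-miR-409-5p, and 7 fell and 4 rose under anti-miR-501-3p. Rbfa, a factor for maturation of the small subunit, fell by 0.26 on the log2 scale in both comparisons, Dhx30, an RNA helicase of mitochondrial RNA granules, fell by 0.15 and 0.20, and Mterf3, a regulator of mitochondrial transcription and ribosome assembly, rose by 0.36 and 0.40. All these calls are from edgeR at a Benjamini-Hochberg adjusted p under 0.05, at which 12.2% and 15.4% of all tested genes fell and 15.6% and 17.6% rose. The counts of the lists that follow stand against the same shares where no trend was removed and no library was left out. With the GC and length trend removed 3.46% and 4.61% of all tested genes fell. The share that rose is not given for that fit, so its rises are counts alone and are not set against all genes.

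Of 14 tested translation factors 2 rose and none fell under anti-miR-409-5p, and 2 rose and 1 fell under anti-miR-501-3p. The risers were Mtif2, an initiation factor, and Guf1, an elongation factor homologous to bacterial LepA. Tufm, the elongation factor that brings transfer RNAs to the ribosome, had -0.24 and -0.26 on the log2 scale and did not pass. Of 22 genes for mitochondrial transcription and RNA stability 5 rose and 3 fell under anti-miR-409-5p, and 7 rose and 4 fell under anti-miR-501-3p. Mtpap, the mitochondrial poly(A) polymerase, rose by 0.39 and 0.42, and Polrmt, the mitochondrial RNA polymerase, fell by 0.31 and 0.33. After removal of the GC and length trend 1 gene of this list rose and none fell under anti-miR-409-5p, and 2 rose and 1 fell under anti-miR-501-3p. Mtpap was still called (0.24 and 0.26) and Polrmt was not (-0.12 in both). Of 13 nuclear regulators of mitochondrial genes 5 rose and none fell under anti-miR-409-5p, and 6 rose and 3 fell under anti-miR-501-3p. Among them Gabpa rose by 0.29 and 0.37, Ppargc1a, the coactivator that promotes mitochondrial biogenesis, by 0.30 and 0.35, and Creb1 by 0.53 and 0.56. After removal of the GC and length trend no assembly gene and no translation factor rose. Of the 25 assembly genes 1 then fell under anti-miR-409-5p and 2 under anti-miR-501-3p, where 3.46% and 4.61% of all tested genes fell. Guf1 was lower with log2 fold changes of -0.25 and -0.24. The regulators called in both comparisons were Creb1 and Yy1 (the name Yy1 was chosen after its values were seen). Without control replicate 1 fewer genes of each of these pathway lists were called in both comparisons, and fewer of all tested genes fell as well.

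In the authors' deposited table for anti-miR-409-5p, 7 of 48 large subunit genes (47 with an adjusted p) and 5 of 29 small subunit genes were lower and none higher at their adjusted p under 0.05, where 1350 of all 12508 genes with an adjusted p were lower (10.8%) and 2251 higher. The authors' deposited table for anti-miR-501-3p had 12 of 48 large and 9 of 29 small subunit genes lower, and 2 large subunit genes higher, against 14.1% lower and 18.9% higher of all its genes with an adjusted p. Of the 78 genes 33 share exon bases with another annotated gene, and 7 share more than 30%, among them Mrps25 (69.8% with Nr2c2) and Mrpl43 (33.4% with Twnk, which encodes the mitochondrial DNA helicase). Mrpl46 and Mrps11 stand head to head on chromosome 7 and share 173 exon bases on opposite strands. Counts of such genes are uncertain where reads could belong to either.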

How the data were processed

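Polyadenylated RNA of 10 libraries was measured as 50 bp single-end reads (TruSeq RNA kit v2, per the labels' protocols). The submitters' processing notes name build mm10 and the tools STAR 2.5.2b, Subread 1.5.1 with featureCounts, and FastQC 0.11.5. The annotation release, the strand setting and the treatment of reads with several positions are not given in the sources used here. Each library has a deposited table of unnormalized read counts by Ensembl gene. The authors also deposited a table per anti-miR with log2 fold changes, p-values and adjusted p-values per the file headers; only counts of calls were taken from it.

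Everything else was computed here with R 4.3.3 and Python 3.11.15. Genes were matched to GENCODE names by Ensembl identifier (48349 of 48709). Low counts were removed with filterByExpr, leaving 16884 genes. Libraries were scaled by TMM, and comparisons were tested two-sided by robust quasi-likelihood in edgeR 4.0.16 with a prior count of 2. The fit held the 10 libraries in 3 groups, without covariates, so that control, with 2 libraries, borrows its spread from the others. The threshold was 0.05 after Benjamini-Hochberg adjustment over all genes. Dependence on transcript GC content and length was taken out as an offset for each library, by splines (5 degrees of freedom) through genes whose mean log2 CPM exceeded 1, which may take true differences out as well. Seed matches were searched as letters in the longest annotated 3' UTR, and promoter motifs on both strands. Alternatives were other scalings, DESeq2 1.42.0, no filter, the 2 groups alone, each library left out, the replicate number as a block, 1 surrogate variable (sva 3.50.0) and removal of the GC trend. The version of that removal with coding transcripts was chosen after seeing the data.

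The replicate numbers of the anti-miR groups come from the sample titles. Same-numbered anti-miR libraries deviated together from their group means (r = 0.375, 0.164, 0.121 and 0.306 over genes), so the numbers were taken to pair the anti-miR libraries in the direct comparison. Between anti-miR libraries of different number r ran from -0.333 to 0.177. The pairing is less clear for anti-miR-409-5p replicate 3, whose r was higher with anti-miR-501-3p replicate 4 (0.177) than with replicate 3 (0.121). The genes and lists were chosen with earlier results of these data known. Genes are named by rule: per comparison with control up to 12 called rises and 12 called falls, the 5 of largest p, the 5 of highest and lowest level, the gene that failed the filter, the 5 of smallest p between the anti-miRs and up to 4 genes of smallest p per pathway list. Other names are said to be chosen later, or serve a count or an example.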

Additional observations from a re-analysis of the deposited data

Results flagged for a closer look

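Mrpl53 in anti-miR-501-3p replicate 1 was at 0.0695 CPM, against 0.0339 to 0.0383 CPM in the other 3 libraries of the group. Its gap to the nearest of them was 0.878 of the group's range, above Dixon's critical value for 4 libraries. The value rests on 2 counts, where the others had 1 count each. It was the only one among 76 gene and group combinations looked at, where chance alone flags about 1 in 20.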

How the results depend on the processing

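The median of each subunit was negative against control in every alternative, both in the 10 fits with a library left out (large -0.13 to -0.088 and small -0.081 to -0.048 for anti-miR-409-5p, large -0.11 to -0.077 and small -0.10 to -0.059 for anti-miR-501-3p) and the other settings (large -0.16 to -0.064 and -0.15 to -0.068, small -0.12 to -0.042 and -0.15 to -0.041). Calls with a library left out numbered 0 to 16 large and 0 to 8 small subunit genes for anti-miR-409-5p, and 2 to 19 and 1 to 9 for anti-miR-501-3p, the lowest each time without control replicate 1. Between the anti-miRs there were 0 calls in every alternative. Shares of all genes called against control are given above for some of these fits only. Where no share is given, as for DESeq2 or the block, the counts are not set against all genes.

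Scaling by total counts gave 21 large subunit calls and medians of -0.16 (large) and -0.12 (small) for anti-miR-409-5p and -0.15 for each subunit for anti-miR-501-3p. Upper-quartile scaling gave medians of -0.15 (large, anti-miR-409-5p) and -0.14 for each subunit for anti-miR-501-3p. DESeq2 called 5 small subunit genes for anti-miR-409-5p. With the GC and length trend removed, 7 large and 5 small subunit genes were called for anti-miR-409-5p (large median -0.067) and 9 large for anti-miR-501-3p (small median -0.052). With coding transcripts, chosen after seeing the data, these were 5 and 3 (-0.064), then 7 and 5 (small median -0.041). The causes were not tested.

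The replicate number as a block called 17 large and 8 small subunit genes for anti-miR-409-5p and 17 and 9 for anti-miR-501-3p. The share of all tested genes called in these comparisons is not given for this fit. Controls share only 2 numbers with each anti-miR group (r = 0.293 and 0.0423 with anti-miR-409-5p, 0.359 and 0.211 with anti-miR-501-3p), which is too few to take them as pairs. In the direct comparison the block changed no call of these genes, while 252 of all tested genes were called with it and 0 without it. Block and GC removal together called 6 large subunit genes for anti-miR-409-5p and 9 for anti-miR-501-3p (small median -0.049).

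For single genes, 44 of 2478 values were counted as reversed, all with GC removal. Values are given for removal alone, with the block, then with coding transcripts, where each reversed. For anti-miR-409-5p they were Mrpl1 -0.0071 and -0.038 (alone, coding), Mrpl2 0.019 and 0.022 (alone, coding), Mrpl20 0.0039 (coding), Mrpl28 0.0093, 0.011 and 0.0075, Mrpl50 -0.028, -0.0034 and -0.060, Mrps15 0.19 (alone), Gabpa -0.0038 and -0.0031 (block, coding), Guf1 -0.25 and -0.24 (alone, block), Pnpt1 -0.092, -0.091 and -0.074, Ppargc1a -0.0060 (block), and Ptcd3 -0.038, -0.041 and -0.023. For anti-miR-501-3p they were Mrpl1 -0.0083 and -0.045 (alone, coding), Mrpl28 0.055, 0.055 and 0.052, Mrpl50 -0.022 and -0.054 (alone, coding), Mrps14 -0.38, -0.33 and -0.44, Mrps30 -0.26 and -0.23 (alone, block), Fastkd2 -0.029 (coding), Guf1 -0.24 and -0.23 (alone, block), Pnpt1 -0.11, -0.11 and -0.087, and Ptcd3 -0.059, -0.062 and -0.037. Of the other values 318 lost a call, 30 gained one and 2086 stayed on the same side of the threshold. The 2086 include changes of sign in genes called in neither fit. Mrpl10, for instance, went from -0.044 to 0.088 under anti-miR-409-5p with GC removal alone, and from -0.065 to 0.068 under anti-miR-501-3p. With 2 control libraries, changes near the median SE of 0.066 could not be detected, and larger ones could be missed as well.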
